A study of Mus musculus with 3 samples.

Results

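The genes described here are a listed set of 41 ATF4 targets and tRNA synthetases, followed in NIH3T3 fibroblasts. They were chosen by name, as 20 synthetases that charge tRNA in the cytosol and 21 other genes of the amino acid and stress response that ATF4 serves. The table holds 40 of the 41 among its 15554 genes, and *Qars*, the glutamine enzyme, was not analysed here. All 40 averaged an FPKM of 1 or more across the libraries, as did 9226 genes in all, and these 9226 expressed genes are the background used below. FPKM counts the sequenced fragments of a gene per length of its exons and per depth of the library, so that levels can be compared between genes.

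NIH3T3 is a long-established fibroblast line from mouse embryos. The study used it to ask whether GDF15, a secreted protein of the TGF-β superfamily, acts on fibroblasts as TGF-β does. CTRL cells received serum-free medium without stimulation, GDF15 cells received GDF15 at 100 ng/mL, and TGF-β cells received TGF-β at 4 ng/mL, each for 24 h after a further 24 h without serum, so every library comes from serum-starved cells. RNA was pooled within each treatment and 1 library was sequenced per treatment. No difference below therefore has a replicate check, no test between treatments is possible and no p-value is given. Both comparisons with CTRL share the same CTRL library.

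ATF4 is a transcription factor whose protein is made mainly when the initiation factor eIF2α is phosphorylated, as happens in amino acid shortage, endoplasmic reticulum (ER) stress or haem shortage, and growth signals through mTORC1 also raise it. Its targets take up amino acids, make non-essential ones and charge tRNA, and others turn the response down or lead to cell death. Because ATF4 is controlled to a large part at translation, the level of its mRNA does not measure the protein.

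The change of a gene is given as the difference of log2(FPKM + 1) between libraries, a scale that shrinks the change where FPKM is low. Beside it stands the local spread, which is how widely the changes of genes at a similar FPKM scatter (a scaled median absolute deviation). For the members it lay between 0.19 and 0.31 in the comparison of GDF15 with CTRL, between 0.19 and 0.30 for TGF-β with CTRL and between 0.13 and 0.19 for TGF-β with GDF15. The depth of the libraries, estimated from the steps of low FPKM values, was 17.2 (CTRL), 20.2 (GDF15) and 16.5 (TGF-β) in units of 1e6 fragments. At that depth a member was covered by an estimated 64.9 to 6118 fragments. All 9 listed fibroblast markers were measured, and 5 of them were higher in GDF15 than in CTRL (44.4% of all genes) and 4 in TGF-β (37.2%). Their changes ran from -0.59 (*S100a4*) to 0.64 (*Fn1*) by GDF15 and from -0.79 (*Pdgfra*) to 0.79 (*Col1a1*) by TGF-β. *Epcam* was listed at 0 in every library, and of the epithelial, endothelial and leukocyte markers *Cd68* alone averaged 1 or more (1.66, 1.14 and 1.67). In RNA from a whole culture, fewer cells of a type and less RNA per cell cannot be told apart.

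ATF4 binds DNA with a C/EBP partner at a composite element, written TGATGNAA, in which one part is read by each partner. RefSeq promoter windows (GRCm38.p6, 250 bases before to 50 after the transcription start) were at hand for 30 of the 40 members and were searched for it on both strands. Of these 30 members, 13 (43.3%) held it, against 3.97% of all 32851 windows and 2.61% of the 7478 expressed genes with a window. Matches are printed here because they are the sequence feature that many members share and that the listing did not use, although some genes are known as ATF4 targets through this element. Each is given 5′ to 3′ on the strand of the gene with 11 bases on either side and the element in capitals, as its reverse complement where it lies on the other strand.
*Asns* (chr6:7693214-7693243, minus strand): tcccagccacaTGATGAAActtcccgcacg
*Trib3* (chr2:152344028-152344057, minus strand): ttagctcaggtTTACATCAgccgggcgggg
*Chac1* (chr2:119351038-119351067, plus strand): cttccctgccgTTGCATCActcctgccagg
*Nupr1* (chr7:126625562-126625591, minus strand): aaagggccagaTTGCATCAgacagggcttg
*Atf3* (chr1:191183425-191183454, minus strand): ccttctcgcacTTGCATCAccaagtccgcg
*Gars* (chr6:55037960-55037989, plus strand): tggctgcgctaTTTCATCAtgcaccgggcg
*Aars* (chr8:111033840-111033869, plus strand): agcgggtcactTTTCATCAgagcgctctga
*Tars* (chr15:11399655-11399684, minus strand): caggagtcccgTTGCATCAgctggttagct
*Yars* (chr4:129189895-129189924, plus strand): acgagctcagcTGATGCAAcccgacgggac
*Iars* (chr13:49682126-49682155, plus strand): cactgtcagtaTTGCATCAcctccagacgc
*Slc1a4* (chr11:20332699-20332728, minus strand): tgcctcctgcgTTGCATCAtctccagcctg
*Slc7a11*, both matches (chr3:50443642-50443690, minus strand): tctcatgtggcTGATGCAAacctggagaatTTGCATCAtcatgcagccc
*Vldlr* (chr19:27216809-27216838, plus strand): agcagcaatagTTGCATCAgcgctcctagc

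The element was found in 5 of the 12 synthetases with a window and in 8 of the 18 other members. In *Asns*, which makes asparagine, the first base of the element stood 23 bases before the start, and in *Slc7a11* the pair of matches faced each other with their first bases 19 apart. *Yars*, *Iars* and *Trib3* held it a few bases after the start. The cyclic AMP response element TGACGTCA, the same on both strands, was found in 0 of the 30 members, in 1.79% of all windows and in 3.69% of the expressed genes with a window. A match describes the letters of a window and is not evidence of binding, and no match says only that these letters are not in this window. *Cars*, *Hars*, *Lars*, *Nars*, *Rars*, *Slc1a5*, *Slc7a3*, *Slc7a5*, *Vars* and *Wars* were not searched.

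**Figure D1:**
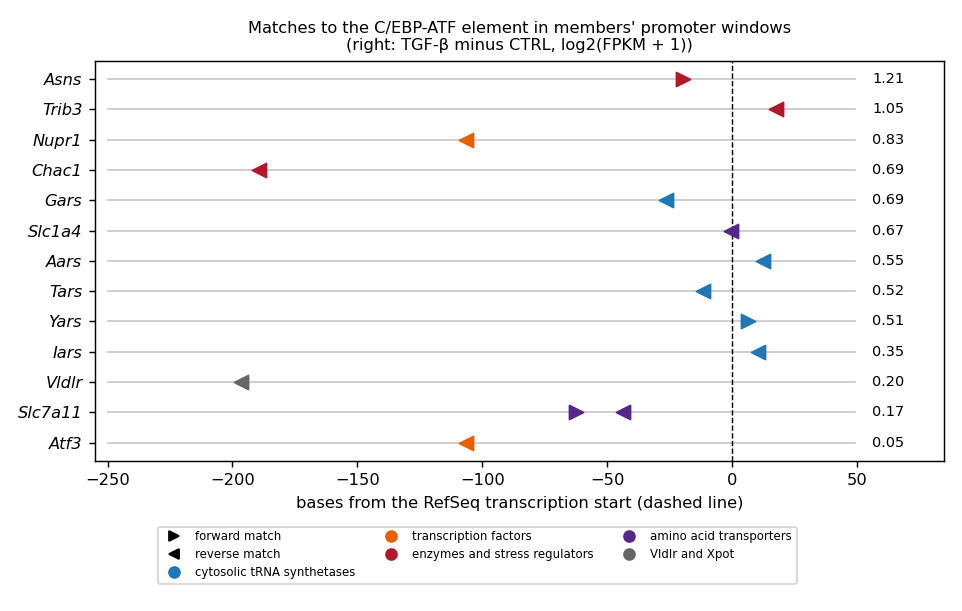
Position of the TGATGNAA element in the promoter windows of the 13 members that hold it, in bases from the RefSeq transcription start, with forward and reverse matches as right and left arrowheads coloured by role. The number at the right is the change by TGF-β in log2(FPKM + 1), which runs from 0.05 for *Atf3* to 1.21 for *Asns*.

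As a set, the members were higher after stimulation, more so with TGF-β than with GDF15. In the GDF15 library 29 of the 40 members were higher than in CTRL, where 44.4% of all genes were higher, and the median change was 0.175 against -0.03 for all genes. In the TGF-β library 31 of the 40 were higher, where 37.2% of all genes were, with a median change of 0.34 against -0.07. When the changes were centred on the median of all genes, which leaves as many genes higher as lower, 32 and 35 members were higher. No member differed by more than 1.5-fold between GDF15 and CTRL, where 1.27% of all genes were over 1.5-fold higher, 1.55% were over 1.5-fold lower and 0.347% were over 2-fold higher. Between TGF-β and CTRL, 10 members were over 1.5-fold higher (2.54% of all genes) and 0 were over 1.5-fold lower (3.06%). With no pseudocount, *Ddit3* was at -0.588 by TGF-β and so just over 1.5-fold lower. *Asns*, *Trib3* and *Slc1a5* were over 2-fold higher in TGF-β than in CTRL (0.932%). The 10 became 16 after centring and 15 after removal of the trend with expression. Centring raised every gene by the same amount, and the share of all genes at these settings was not computed. These counts describe a list that was put together with results of these libraries known.

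**Figure D2:**
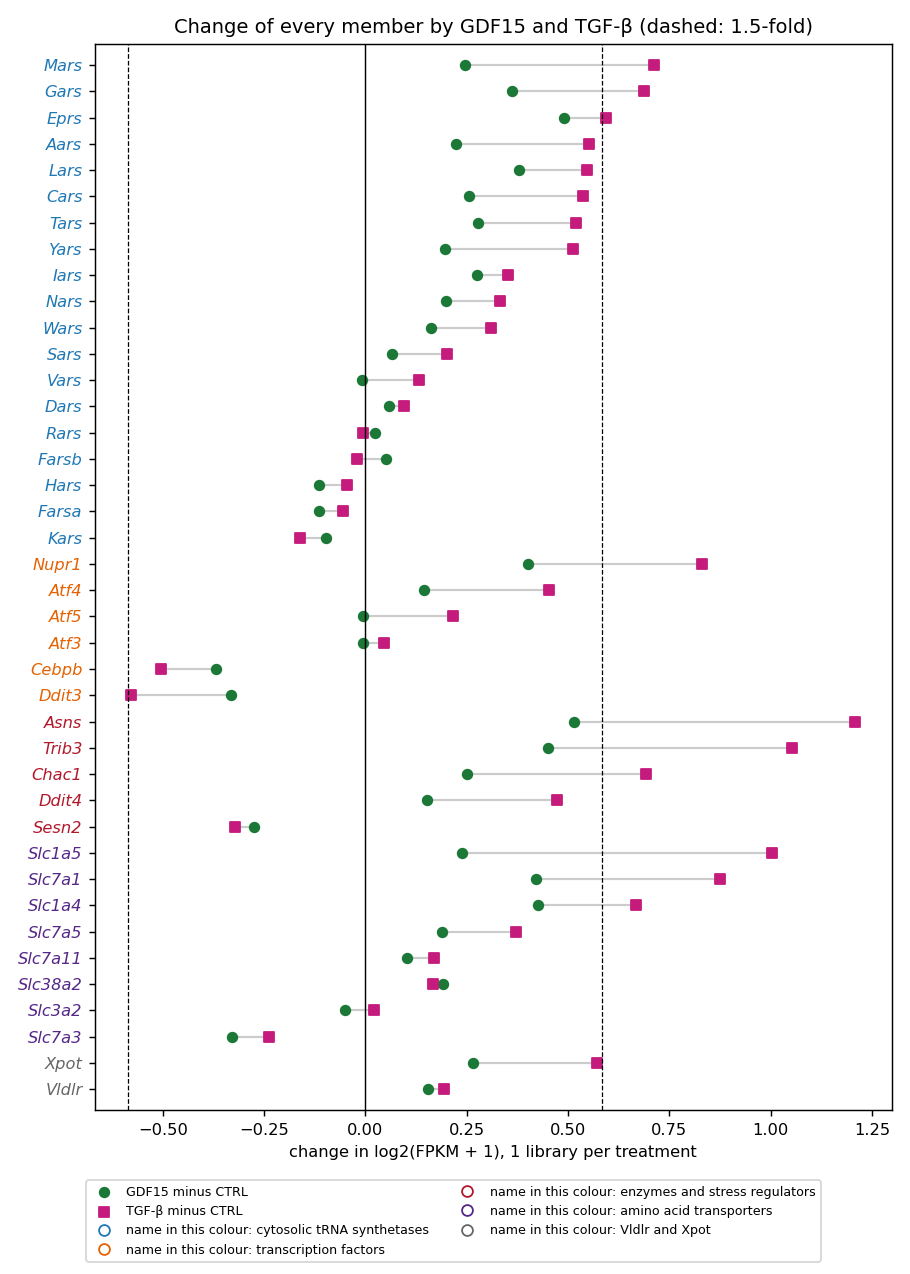
Change of all 40 members in log2(FPKM + 1), by GDF15 (circles) and by TGF-β (squares), with 1 library per treatment and gene names coloured by role. The square lies to the right of the circle for 33 members, 10 squares and 0 circles lie beyond 1.5-fold to the right, and *Cebpb*, *Ddit3*, *Sesn2*, *Slc7a3*, *Farsa*, *Hars* and *Kars* lie to the left of 0 for both stimuli at this setting.

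The tRNA synthetases join each amino acid to its tRNA. The 19 measured ones were all well expressed, with a median FPKM of 30.05 in CTRL, and they ranged there from 12.0 for *Mars* to 57.5 for *Gars*. The median of their changes was 0.20 for GDF15 and 0.33 for TGF-β. They did not all differ alike. By general knowledge, 12 of the cytosolic enzymes are usually listed as ATF4 targets, and 7 measured others are not. These lists were drawn up with earlier results of these data known. All 12 of the first kind were higher in GDF15 than in CTRL (44.4% of all genes) and higher in TGF-β than in CTRL (37.2%). They were also all higher in TGF-β than in GDF15 (39.7%). The same held under upper quartile scaling, after centring and after removal of the trends with expression, length and GC content. Of the 10 alternatives, those that alter only the pseudocount or the minimum FPKM cannot change a sign. The median change of the 12 was 0.25 by GDF15 (range 0.07 to 0.49) and 0.53 by TGF-β (range 0.20 to 0.71).

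*Mars*, the methionine enzyme, which also charges the tRNA that starts every protein, stood at FPKM 12.0, 14.4 and 20.2 in CTRL, GDF15 and TGF-β. Its change by TGF-β was 0.71, the largest of any synthetase at this setting, and after removal of the length trend it was 0.76, against 0.775 for *Gars*. The 95% interval of the ratio of TGF-β to CTRL, which covers counting error only, was 1.53 to 1.87. *Gars*, which charges glycine and supplies both the cytosol and the mitochondria, stood at 57.5, 74.2 and 93.3 FPKM in CTRL, GDF15 and TGF-β. The third synthetase over 1.5-fold by TGF-β was *Eprs*, an enzyme for glutamate and proline, at 30.0, 42.6 and 45.9 FPKM. *Eprs* was nearly as high with GDF15 as with TGF-β. Its change by GDF15 was 0.49, the largest of any synthetase at this setting and 2.56 times the local spread after the median of genes of like expression was taken away, and its change by TGF-β was 0.59. After removal of the trends with length and GC content, *Eprs* had 0.38 by GDF15 and *Gars* 0.43.

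A group of 5 synthetases lay just under 1.5-fold with TGF-β, and at or over it after centring. *Aars*, for alanine, was at 33.6, 39.5 and 49.8 FPKM in CTRL, GDF15 and TGF-β, and *Lars*, for leucine, at 22.3, 29.4 and 33.1. *Cars*, for cysteine, stood at 18.8, 22.6 and 27.6 FPKM in the same order. *Tars*, for threonine, stood at 35.7, 43.5 and 51.6, and *Yars*, for tyrosine, at 37.2, 42.8 and 53.5. The changes of these 5 by TGF-β ranged from 0.51 (*Yars*) to 0.55 (*Aars*), and by GDF15 from 0.20 (*Yars*) to 0.38 (*Lars*). *Aars* shares 1326 exon bases with *Exosc6* on the same strand in GENCODE M21, and *Exosc6*, at 7.04, 5.66 and 5.42 FPKM, was lower in both stimulated libraries. The remaining 4 of the 12 had smaller changes by TGF-β, from 0.20 to 0.35. *Iars*, for isoleucine, stood at 19.7, 24.1 and 25.4 FPKM, and *Nars*, for asparagine, at 54.3, 62.5 and 68.6. *Wars*, for tryptophan, stood at 17.9, 20.1 and 22.4. *Sars*, for serine, had the smallest change of the 12 by TGF-β, 0.20, with FPKM of 37.2, 39.0 and 43.0.

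The 7 other cytosolic synthetases stayed close to their CTRL level. Their changes ran from -0.12 to 0.06 by GDF15, with 3 of 7 higher (44.4% of all genes), and from -0.16 to 0.13 by TGF-β, with 2 of 7 higher (37.2%), so that none of the 7 reached the median of the 12 in either comparison. The sign of such small changes depended on scaling. With the changes centred on the median of all genes, where as many genes are higher as lower, 4 and 6 of the 7 were higher. *Rars*, for arginine, was at 48.9, 49.8 and 48.8 FPKM in CTRL, GDF15 and TGF-β. *Farsa* and *Farsb* encode the subunits of the phenylalanine enzyme. Their levels were close to each other in each library, at 25.4, 23.3 and 24.4 FPKM for *Farsa* and 27.2, 28.2 and 26.8 for *Farsb*. *Dars*, for aspartate, was at 33.4, 34.9 and 35.8 FPKM, *Hars*, for histidine, at 28.5, 26.3 and 27.6, and *Vars*, for valine, at 22.7, 22.6 and 25.0. *Kars*, which charges lysine and like *Gars* supplies both compartments, was the lowest of the 19 relative to CTRL with TGF-β, at 50.02, 46.7 and 44.7 FPKM. Its change by TGF-β was -0.16, against 0.69 for *Gars*. *Hars* shares 195 exon bases and *Farsb* 248 with genes on the opposite strand, and whether the strand was used in counting is not given in the sources used here.

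The mitochondrial synthetases, encoded by separate genes, give a comparison within the same biochemical class. All 17 listed ones were measured, and 5 were higher with GDF15 (44.4% of all genes) and 2 with TGF-β (37.2%). Their median change was -0.12 by GDF15 (range -0.46 to 0.19) and -0.09 by TGF-β (range -0.36 to 0.15). With the changes centred on the median of all genes, where as many genes are higher as lower, 6 and 8 of the 17 were higher. They were expressed at a lower level than the cytosolic enzymes, with a median FPKM of 7.43 in CTRL. No mitochondrial synthetase reached the TGF-β change of the lowest of the 12. Of the 15 with a promoter window 0 held TGATGNAA, against 5 of 8 among the 12 and 0 of 4 among the 7. Of expressed genes with a window 2.61% held it, so a count of 0 in so few windows is near that share.

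**Figure D3:**
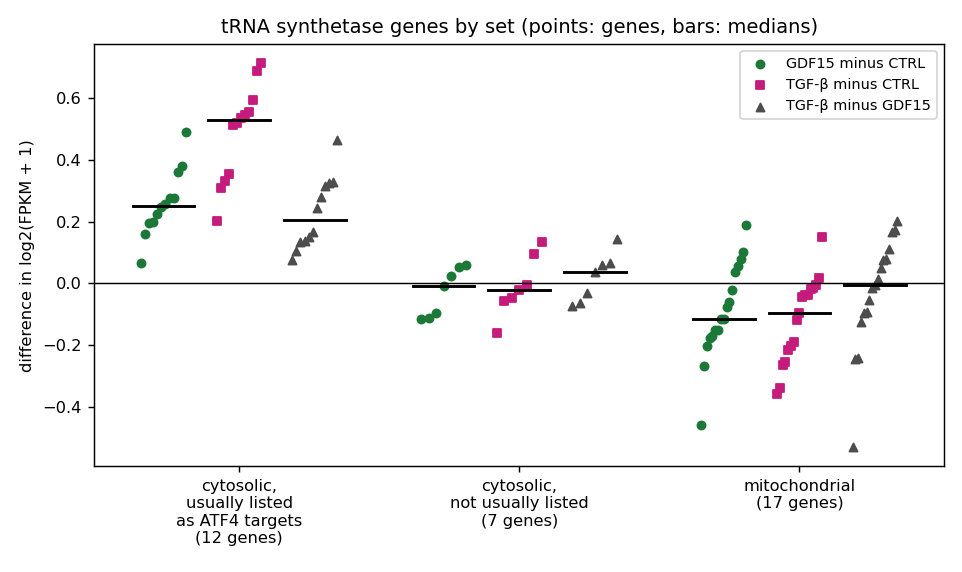
Difference in log2(FPKM + 1) of each synthetase gene (points) and the median (bars) for the 12 cytosolic enzymes usually listed as ATF4 targets, the 7 others and the 17 mitochondrial enzymes. The first set lies above 0 in all 3 comparisons, with medians of 0.25, 0.53 and 0.205, and the others lie around or below 0.

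In animal cells a number of cytosolic synthetases are bound together in the multisynthetase complex on 3 scaffold proteins. The 7 measured enzymes of the complex fell on both sides of the division above. *Eprs*, *Iars*, *Lars* and *Mars* had changes of 0.35 to 0.71 by TGF-β, whereas *Dars*, *Kars* and *Rars* lay between -0.16 and 0.10. The scaffold genes *Aimp1*, *Aimp2* and *Eef1e1* had a median change of -0.28 by GDF15 and 0.04 by TGF-β. The synthetases of the complex were thus not at a common ratio to each other in the 3 libraries.

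Among the transcription factors, *Atf4* itself was read at 156, 173 and 214 FPKM in CTRL, GDF15 and TGF-β. It was among the most abundant members in every library, with a change of 0.15 after GDF15 and 0.45 after TGF-β, where the local spread of such abundant genes is wide (0.31 and 0.30). *Nupr1*, a small nuclear protein of the stress response, was the highest member of all in both stimulated libraries. It stood at 136, 180 and 243 FPKM in CTRL, GDF15 and TGF-β, a change of 0.40 by GDF15 and 0.83 by TGF-β. Its transcript is short, and its change by GDF15 was 0.71 after removal of the length trend and 0.78 with GC content too, past 1.5-fold in either case. *Atf5*, a relative of ATF4 that is also translated under stress, was at 167, 166 and 194. *Atf3*, a repressor that stress usually induces, was the lowest member, at 1.90, 1.89 and 1.99 FPKM. Its estimated 64.9 to 75.8 fragments leave a ratio of TGF-β to CTRL anywhere from 0.728 to 1.49.

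The factors *Ddit3* and *Cebpb* were lower in both stimulated libraries, *Ddit3* with GDF15 only as long as transcript length and GC content were not allowed for. *Ddit3* encodes CHOP, which is tied to cell death in prolonged stress, and its levels were 71.8, 56.8 and 47.8 FPKM in CTRL, GDF15 and TGF-β. Its change of -0.58 by TGF-β was the lowest of all 40 members at this setting, 2.54 times the local spread below genes of like expression. Its longest coding transcript has 890 bases, and its change of -0.33 by GDF15 became -0.03 after the trend with transcript length was taken away and 0.06 after that with GC content too, which left its change by TGF-β at -0.33. *Cebpb* encodes C/EBPβ, a partner of ATF4 at the composite element, and stood at 26.2, 20.04 and 18.1 FPKM in the same order. It shares 312 exon bases with *Tmem189* on the opposite strand, which was at 21.8, 19.96 and 20.51 FPKM. Its changes of -0.37 and -0.50 became -0.10 and -0.26 after removal of the trends with length and GC content. *Ddit3* and *Mars* lie side by side on chromosome 10 on opposite strands and share 68 exon bases, yet they differed in opposite directions.

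The enzymes and stress regulators held the largest changes of the set. *Asns* (chromosome 6 of GRCm38, 7675169 to 7693254) was at 31.5 FPKM in CTRL, 45.5 with GDF15 and 74.2 with TGF-β. It differed from CTRL by 0.51 with GDF15 and 1.21 with TGF-β, the largest changes of the 40 members at this setting, which were 2.83 and 6.29 times the local spread. By GDF15 this order depended on transcript length, since *Nupr1* had 0.71 and *Asns* 0.62 after removal of the length trend. The ratio of TGF-β to CTRL was 2.35, with a counting interval of 2.19 to 2.53. *Trib3* (chromosome 2, 152337422 to 152344032) encodes a pseudokinase that binds ATF4 and dampens the response. It stood at 13.9, 19.3 and 29.9 FPKM, with changes of 0.45 and 1.05. *Chac1*, an enzyme that breaks down glutathione, was at 6.92, 8.41 and 11.8 FPKM, and its change of 0.69 by TGF-β rests on an estimated 195 to 320 fragments per library. *Ddit4* and *Sesn2* both restrain the growth kinase mTORC1, and they differed from CTRL in opposite directions. *Ddit4* was at 19.6, 22.0 and 27.7 FPKM, whereas *Sesn2*, which also senses leucine, was at 15.8, 12.9 and 12.4. Its differences from CTRL were -0.28 and -0.32.

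The 8 amino acid transporters differed widely among themselves. *Slc1a5* (chromosome 7, 16781340 to 16798274), the glutamine carrier ASCT2, was at 28.8 FPKM in CTRL, 34.2 with GDF15 and 58.8 with TGF-β. The differences from CTRL were 0.24 with GDF15 and 1.004 with TGF-β. The stimulated libraries were thus further apart from each other than GDF15 was from CTRL. The same held for other members, among them *Slc7a1*, *Asns*, *Trib3*, *Chac1* and *Mars*. *Slc7a1*, which carries arginine and lysine, stood at 8.73, 12.0 and 16.9 FPKM, and *Slc1a4*, which carries alanine and serine, at 19.9, 27.1 and 32.2. Both had changes over 0.4 by GDF15, and their changes by TGF-β were 0.88 and 0.67. The change of *Slc7a1* by GDF15 was 0.27 after removal of the length trend. *Slc7a3*, a second carrier of arginine and lysine, was expressed at a low level and was lower in both stimulated libraries, at 3.23, 2.37 and 2.58 FPKM.

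*Slc7a5* and *Slc7a11* are light chains that reach the cell surface bound to the heavy chain *Slc3a2*, and they import leucine and cystine. *Slc3a2* was about level across the libraries, at 69.6, 67.2 and 70.7 FPKM. *Slc7a5* was at 31.8, 36.4 and 41.5 FPKM, a change of 0.37 by TGF-β. *Slc7a11* was at 8.68, 9.39 and 9.89 FPKM, and once the dependence on length and GC content was taken away its change by GDF15 was -0.12. In each library the heavy chain was above the sum of these light chains in FPKM. *Slc38a2*, a sodium-coupled carrier of small neutral amino acids, was at 52.0, 59.5 and 58.4 FPKM, with changes of 0.19 and 0.17.

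Outside these roles, *Xpot* encodes the exportin that carries tRNA out of the nucleus. It stood at 8.68, 10.6 and 13.4 FPKM in CTRL, GDF15 and TGF-β, and its change of 0.57 by TGF-β was close to those of the 5 synthetases just under 1.5-fold. *Xpot* has a processed pseudogene, *Gm7389*, that is 97.6% identical to it over 378 bases. *Vldlr*, a lipoprotein receptor that ATF4 induces in ER stress, was expressed at a low level, at 3.07, 3.53 and 3.66 FPKM.

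Set directly against each other, the stimulated libraries do not involve CTRL. In this comparison 33 of the 40 members were higher in TGF-β than in GDF15, where 39.7% of all genes were higher, with a median difference of 0.15 against -0.04 for all genes. Over 1.5-fold higher in TGF-β were 3 members, *Slc1a5*, *Asns* and *Trib3* (0.91% of all genes), and 0 were over 1.5-fold lower (0.629%) or over 2-fold higher (0.13%). *Slc1a5* differed most, by 0.76, and only 29 of the 9226 genes had a larger difference. *Asns* differed by 0.69 and *Trib3* by 0.60, and 45 and 75 genes lay above them. These 3 differences were 5.53, 5.15 and 4.59 times the local spread. *Mars* (0.47), *Slc7a1* (0.45), *Chac1* (0.44) and *Nupr1* (0.43) followed. The lowest member was *Ddit3*, at -0.25.

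**Figure D4:**
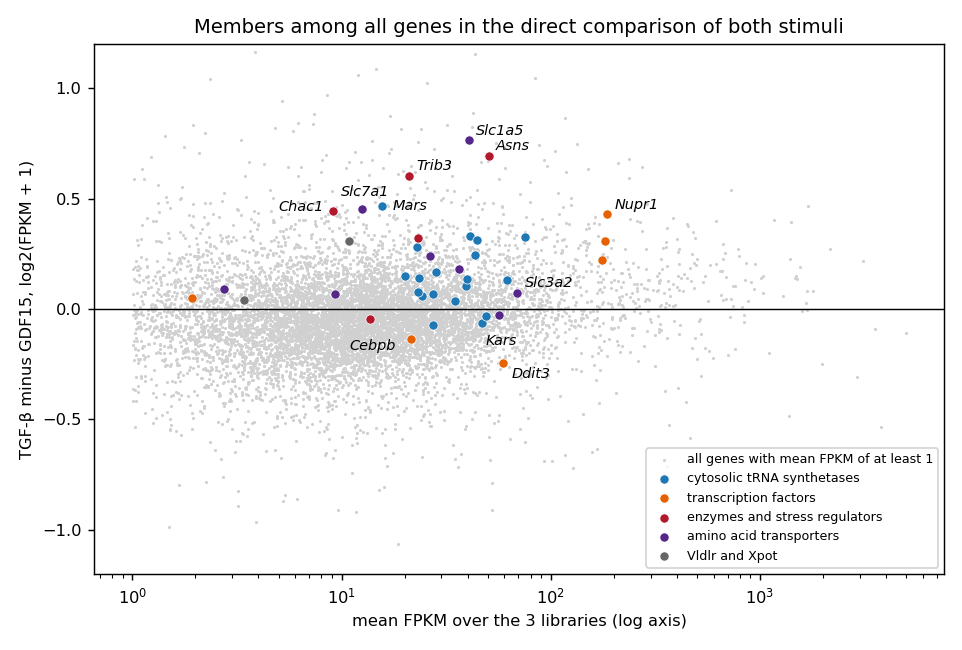
Difference between the TGF-β and GDF15 libraries in log2(FPKM + 1) against mean FPKM (log axis), for the members coloured by role and for the other expressed genes in grey, of which 7 lie outside the plotted range of 1.2 on either side. *Slc1a5*, *Asns* and *Trib3* lie highest among the members, and *Ddit3* lies lowest.

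Members that hold TGATGNAA in the promoter window were compared with those that do not, as a description. With TGF-β, the median change was 0.55 for the 13 with the element, of which 13 were higher, and 0.17 for the 17 without, of which 11 were higher (37.2% of all genes). With GDF15, the medians were 0.28 and 0.06, with 12 of 13 and 10 of 17 higher (44.4% of all genes). Between the stimulated libraries they were 0.315 and 0.07. The ranges of the members with and without the element overlapped in every comparison, since *Atf3* holds it and had a change of 0.05 by TGF-β, and *Slc7a1* does not and had 0.88. Among the synthetases, the 5 with the element had changes of 0.35 to 0.69 by TGF-β and the 7 without had -0.16 to 0.71.

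Changes followed transcript length in all genes, and this touches the members. Across the 5405 genes that averaged 10 FPKM or more (genes are not independent replicates), Spearman's rho between the change and the longest coding transcript's length was 0.52 for GDF15, 0.26 for TGF-β and -0.36 for the difference between both. The 12 synthetases usually listed as ATF4 targets have a median length of 3396 bases and the 7 others one of 2109. All genes of the lengths of these 12 had a median change of -0.01 by GDF15 and -0.06 by TGF-β, and all genes of the lengths of the 7 had -0.08 and -0.11. The mitochondrial enzymes have a median length of 3336 bases. The part of transcript length in the difference between the sets of synthetases was not tested. After the length trend was taken away, 2 members were over 1.5-fold higher by GDF15, and the share of all genes at that setting was not computed.

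**Figure D5:**
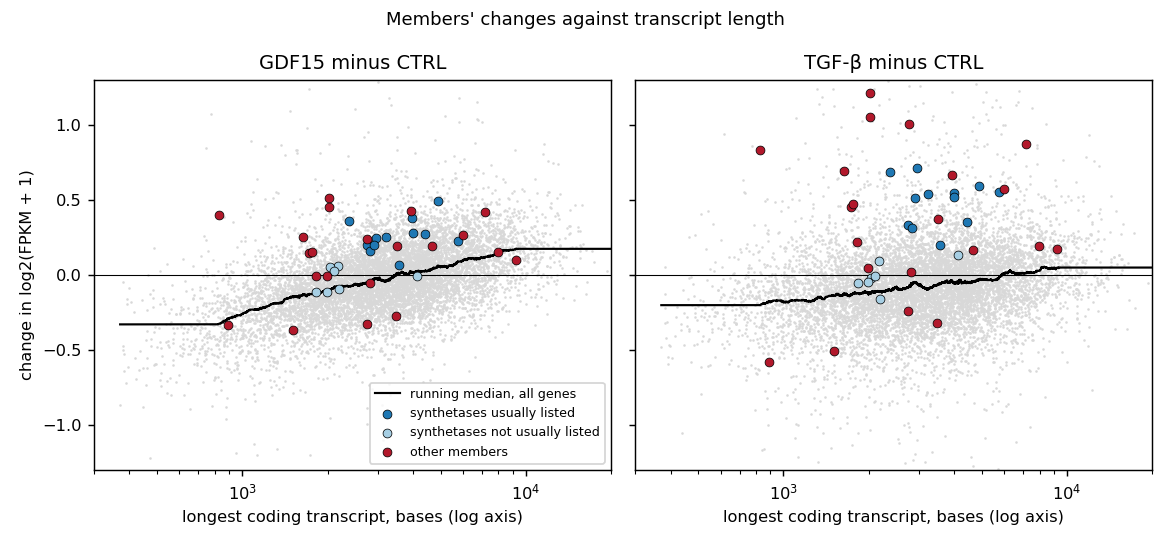
Change by GDF15 and by TGF-β in log2(FPKM + 1) against the length of the longest coding transcript (log axis), for members by set and for all expressed genes in grey, with their running median as a line. The line climbs with length, more for GDF15, and the 12 synthetases usually listed as ATF4 targets (dark blue) lie above it in both panels.

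Upstream of ATF4, the genes for the eIF2α kinases, eIF2α itself, its exchange factor and its phosphatase subunits differed from CTRL in both directions. Of 12 listed, 11 were measured, with changes of -0.18 to 0.28 by GDF15 and -0.24 to 0.24 by TGF-β, with 5 higher by GDF15 (44.4% of all genes) and 6 by TGF-β (37.2%) and medians of -0.02 and 0.09. *Eif2ak3*, which encodes the kinase PERK of ER stress, was at 9.40, 11.5 and 9.37 FPKM in CTRL, GDF15 and TGF-β. *Eif2ak4*, which encodes GCN2, the kinase that senses uncharged tRNA, was at 8.11, 7.47 and 6.73. *Eif2s1*, the gene of eIF2α, was at 14.7, 15.9 and 17.6, and *Ppp1r15a*, the stress-induced phosphatase subunit, at 15.8, 13.8 and 14.9. The activity of the kinases and of eIF2α depends on phosphorylation, which these data do not measure.

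Other genes usually listed as ATF4 targets, 26 by name, were set beside the members. Of these, 25 were in the table and 22 averaged 1 FPKM or more. By GDF15, 16 of the 22 were higher (44.4% of all genes) and 3 were over 1.5-fold higher (1.27%), *Aldh1l2*, *Mthfd2* and *Aldh18a1*, against 0 of the 40 members. By TGF-β, 19 were higher (37.2%) and 10 were over 1.5-fold higher (2.54%). The medians were 0.22 and 0.46. *Aldh1l2*, *Mthfd2* and *Pycr1* were over 2-fold higher with TGF-β. *Aldh1l2* and *Mthfd2*, of mitochondrial folate metabolism, stood at 7.25, 13.1 and 21.5 FPKM and at 7.92, 12.8 and 20.01. *Pycr1*, of proline synthesis, stood at 4.87, 7.32 and 11.8. The other 7 over 1.5-fold were *Aldh18a1*, *Cth*, *Ero1l*, *Gadd45a*, *Pck2*, *Phgdh* and *Psph*. *Gdf15*, itself a target of ATF4 and the gene of one of the stimuli, was at or under 0.12 FPKM in all libraries. TGATGNAA was found in 5 of 22 windows of this list (22.7%), against 2.61% of expressed genes with a window.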

How the data were processed

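One pooled RNA sample of NIH3T3 fibroblasts per treatment (CTRL, GDF15, TGF-β) was measured by RNA-seq. From stranded mRNA libraries read in single-end mode, the authors computed FPKM by Cufflinks and deposited them for the protein coding genes that UniProt lists as reviewed. The submitters' processing notes name TopHat 1.3.2, Bowtie 0.12.9, Cufflinks 2.0.2 and mm10. The annotation and the use of strand in counting are not given in the sources used here. FPKM were used as deposited.

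Changes are differences of log2(FPKM + 1). List counts and medians used the genes that averaged 1 FPKM or more. The members and lists were chosen with earlier results of these data known, and the lists come from general knowledge. All members were named. Of the other pathway lists, *Eif2ak3*, *Eif2ak4*, *Eif2s1*, *Ppp1r15a* and *Gdf15* were named, with every gene over 1.5-fold higher by GDF15 or TGF-β. The scaffold genes, the cell type markers and *Exosc6*, *Tmem189* and *Gm7389*, which resemble or overlap a member, were named outside this rule, the markers after their values were seen. Multiples of the local spread (over 501 genes) are after subtraction of the local median. Depth was estimated from the FPKM step of 1 fragment in genes with a single coding transcript, and ratios have exact (Clopper-Pearson) 95% intervals from estimated fragments, which cover counting error only. Lengths, coordinates and overlaps were read from GENCODE M21 (GRCm38), not necessarily the annotation behind the FPKM, with 15439 of 15513 symbols matched, 745 of them by an older symbol. Near-identical transcripts were searched with BLAST 2.17.0. Promoter windows are from RefSeq. Besides those given, a further marker gene and a further promoter match are not reported here. The calculations were tested on simulated data. Alternatives were pseudocounts of 0.5, 0.1 and none, no minimum or a minimum mean FPKM of 5, upper quartile scaling, centring on the median, and removal of the trends with expression, length, or length and GC content. The software was matplotlib 3.10.9, scipy 1.17.1, pandas 2.3.3 and numpy 2.4.6 under Python 3.11.15.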

Additional observations from a re-analysis of the deposited data

How the results depend on the processing

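No paired analysis was possible because the 3 libraries carry no replicate numbers, and leaving out a library would remove a whole treatment. Of 330 summary values under the 10 alternatives, 309 stayed close (a median within 0.1, a count within 1.5 times) and 21 moved. Of 1191 values of single members, 1179 stayed within the local spread and 12 moved, 11 of them after removal of the trends with length and GC content. All 12 synthetases usually listed as ATF4 targets were higher in the 3 comparisons under every alternative. A sign changed under some alternative for 8 members by GDF15, 4 by TGF-β and 3 between the stimulated libraries. Alternatives that alter only the pseudocount or the minimum cannot change a sign. The number of members over 1.5-fold higher by TGF-β was 16 after centring and 15 after removal of the expression trend. By GDF15 it was 2 after removal of the length trend and 2 with GC content too. The share of all genes at these settings was not computed. Of the synthetases not usually listed, 6 were higher by TGF-β under upper quartile scaling, centring and removal of each of the 3 trends. The median of this set by TGF-β was 0.09 after removal of length, and 5 were higher by GDF15 after removal of length and GC content. After centring, as many of all genes are higher as lower. Of the mitochondrial synthetases, 8 were higher by TGF-β under upper quartile scaling, centring and removal of the expression trend, and 7 after removal of length, with or without GC content. With a minimum mean FPKM of 5, which leaves fewer of them, 3 were higher by GDF15, 0 by TGF-β (median -0.195) and 4 in TGF-β against GDF15. With no minimum, the other ATF4 targets had a median of 0.109 by GDF15. Unless the setting itself removes genes, the cause was not tested. Depth limits *Atf3*, *Chac1* and *Slc7a3* most.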

Other observations

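Genes next to the ATF4 response were looked at in the same libraries. Of 17 listed ER chaperones and ER stress genes, 15 were higher with GDF15 (44.4% of all genes) and 14 with TGF-β (37.2%), with medians of 0.25 and 0.26 against -0.03 and -0.07 for all genes. *Hsp90b1*, an ER chaperone, was over 1.5-fold higher with GDF15, at 227, 344 and 331 FPKM in CTRL, GDF15 and TGF-β. *Pdia6*, an ER disulfide isomerase, was over 1.5-fold higher with TGF-β, at 133, 180 and 214. Between the stimulated libraries the median difference of this list was 0.04, against 0.15 for the 40 members. TGATGNAA was in 0 of its 15 promoter windows, which is near the share of 2.61% among expressed genes with a window. Other amino acid transporters, of which 14 of 17 had a mean FPKM of at least 1, had medians of 0.11 by GDF15 and 0.025 by TGF-β, with 9 and 8 higher against the same shares of all genes.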
